A study of Mus musculus with 20 samples.

Results

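The genes described here are 30 genes of cholesterol synthesis and supply, followed through ovary messenger RNA of mice. They were chosen by name, with earlier results of these data known. They comprise 17 enzymes of synthesis (Acat2, Hmgcs1, Mvk, Pmvk, Mvd, Idi1, Fdps, Ggps1, Fdft1, Sqle, Lss, Cyp51, Tm7sf2, Nsdhl, Hsd17b7, Ebp and Dhcr7), 5 regulators (Srebf1, Srebf2, Scap, Insig1 and Insig2), 6 genes of uptake, transport and efflux (Scarb1, Npc1, Npc2, Lipa, Stard4 and Abca1) and 2 of ester storage and release (Soat1 and Lipe). All 30 were among the 23457 genes of the deposited count files, and all 30 were among the 16099 genes that passed a filter on low counts. Libraries were made from the ovaries of 20 female Ames dwarf strain mice, 5 in each of 4 groups: normal mice (N/df) at 6 months, normal mice at 22 months, dwarf mice (df/df) at 6 months and dwarf mice at 22 months. Dwarf mice are homozygous for a recessive pituitary mutation and lack growth hormone, prolactin and thyrotropin. Normal mice carry a single copy of the mutation and have a working pituitary. The labels name no treatment, and the sources used here do not give the stage of the estrous cycle at collection. The series title places the study in the reproductive ageing of these long-lived mice.

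Cells build cholesterol from acetyl-CoA through mevalonate, farnesyl diphosphate, squalene and lanosterol, and most of the enzymes are switched on together when sterol runs low. The SREBP transcription factors (Srebf1 and Srebf2) do this after Scap escorts them out of the endoplasmic reticulum, where Insig1 and Insig2 hold them back while sterol is plentiful. In the ovary, luteal and theca cells turn cholesterol into progesterone and androgens, and rodent luteal cells draw much of it from high-density lipoprotein through the receptor Scarb1 and keep it as esters made by Soat1.

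The sequences just upstream of 4 synthesis genes that recur below are shown to place the pathway's best-known promoter letters. RefSeq (GRCm38.p6) gave a promoter window for 24 of the 30 genes, 33 windows in all, and none for Fdps or Scarb1. The 250 bases before the transcription start are printed 5′ to 3′ on the gene's strand. Capitals mark TCACNCCAC, a core of the sterol regulatory element that SREBP binds, and CCAAT, the box that the factor NF-Y binds. Both were searched on both strands, so that ATTGG is CCAAT read from the other strand, and the matches shown do not overlap.
Hmgcs1, chr13:119690101-119690350, plus strand: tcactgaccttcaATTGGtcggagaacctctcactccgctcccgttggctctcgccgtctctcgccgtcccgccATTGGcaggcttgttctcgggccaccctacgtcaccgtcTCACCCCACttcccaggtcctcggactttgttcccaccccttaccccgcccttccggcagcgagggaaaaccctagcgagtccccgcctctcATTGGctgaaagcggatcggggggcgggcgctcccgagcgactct
Mvd, chr8:122443423-122443672, minus strand: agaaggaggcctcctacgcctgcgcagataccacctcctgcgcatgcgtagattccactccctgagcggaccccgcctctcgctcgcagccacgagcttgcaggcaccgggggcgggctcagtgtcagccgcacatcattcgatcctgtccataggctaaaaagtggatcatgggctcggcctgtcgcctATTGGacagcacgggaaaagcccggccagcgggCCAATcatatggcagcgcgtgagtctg
Hsd17b7, chr1:169969206-169969455, minus strand: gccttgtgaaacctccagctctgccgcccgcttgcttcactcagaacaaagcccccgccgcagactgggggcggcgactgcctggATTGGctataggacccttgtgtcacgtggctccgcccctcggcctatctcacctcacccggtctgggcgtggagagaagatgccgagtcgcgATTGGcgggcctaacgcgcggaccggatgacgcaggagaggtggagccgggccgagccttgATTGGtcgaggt
Dhcr7, chr7:143822917-143823166, plus strand: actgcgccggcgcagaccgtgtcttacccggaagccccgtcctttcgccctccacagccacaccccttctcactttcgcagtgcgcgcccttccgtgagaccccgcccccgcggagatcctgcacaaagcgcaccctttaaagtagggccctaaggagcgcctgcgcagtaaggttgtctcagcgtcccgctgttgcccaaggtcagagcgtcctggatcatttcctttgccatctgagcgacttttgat
The TCACNCCAC core was found in Hmgcs1, 137 bases before the start, and in no other of the 24 genes. That was 3.03% of their 33 windows, against 1.05% of 32851 mouse promoter windows. The CCAAT box was found in 20 of the 24 genes and in 63.6% of their 33 windows, against 33.85% of all windows. Hmgcs1 and Hsd17b7 held 3 such boxes each and Mvd held 2. The Dhcr7 window shown, 1 of 3 for this gene, held neither set of letters. Dhcr7 counts among the 20 genes because another of its windows held a CCAAT box. A match is a description of the sequence and not a measured binding site.

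The reads counted in genes numbered 1365640 in the shallowest and 36068284 in the deepest library. Levels are given as CPM, the count of a gene scaled by this total, and differences as log2 fold changes ± SE from edgeR's quasi-likelihood test, where the SE was derived from the test's F statistic. A gene was called where the Benjamini-Hochberg adjusted p over all 16099 genes was under 0.05. Normal 6-month replicate 2 stood apart from its group: 10 markers of steroid-producing cells summed to 141 CPM there and to 10570 CPM or more in the other 4 libraries, 8 oocyte markers summed to 5.32 against 254 CPM or more, and the oviduct gene Ovgp1 was at 4758 against 9.94 to 60.7 CPM. At 22 months Ovgp1 was at 1264 to 3053 CPM in normal and 1465 to 2737 CPM in dwarf libraries. Normal 6-month replicate 3 was the shallowest library, and the macrophage markers summed to 2950 CPM in normal 22-month replicate 3. The counts of the 30 genes called are given with and without these 3 libraries.

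Set on a common scale of CPM per kilobase of exon, Scarb1 was the most abundant of the 30 messages with a mean level of 218 over the 20 libraries. It was followed by Fdps (93.9), the enzyme that makes farnesyl diphosphate, then by Scap (81.6), Npc2 (64.7), a lysosomal sterol carrier, and Soat1 (54.2). The least abundant was Stard4 (2.55), a cytosolic sterol carrier. In dwarf ovary at 6 months the order of the leading messages differed: Scarb1 stood at 100.5, Scap at 84.4 and Npc2 at 64.0, while Fdps stood at 36.6, next to Soat1 at 35.9. In normal ovary at the same age Scarb1 stood at 456 and Fdps at 185 CPM per kilobase. Exons of Fdft1, Lss, Lipe, Npc1 and Srebf1 overlap those of another gene on the opposite strand and exons of Tm7sf2 those of Vps51 on the same strand, so the counts of these 6 genes are uncertain.

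In dwarf ovary at 6 months, 4 of the 30 messages fell below their level in normal ovary and 0 rose. The 4 were the synthesis enzymes Mvd, Fdps and Dhcr7 and the lipoprotein receptor Scarb1. Among all tested genes 2.3% were called lower in this comparison and 2.27% higher. The estimated difference was below 0 for 27 of 30 messages and for 17 of 17 synthesis enzymes, against 54.1% of all genes. Its median over the enzymes was -0.86 on the log2 scale, where the median of all genes was -0.04.

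Dhcr7 (chromosome 7, 143823167 to 143848410, mm10) encodes the reductase that finishes cholesterol from 7-dehydrocholesterol. Its level in the 5 normal libraries at 6 months was 310.5, 51.0, 233, 226 and 392 CPM, in the order of replicates 1 to 5, and in the 5 dwarf libraries 34.8, 45.4, 61.9, 38.9 and 46.3 CPM. Normal replicates 1, 3, 4 and 5 lay above every dwarf library, and normal replicate 2 lay inside the dwarf range. The log2 difference was -2.46 ± 0.45, a 5.49-fold lower level in dwarf ovary, with an edgeR adjusted p of 0.0038.

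Fdps (chromosome 3, 89093588 to 89101967) showed the same layout. Normal libraries held 265, 43.8, 301, 320.0 and 423 CPM and dwarf libraries 50.1, 43.9, 56.3, 50.8 and 66.3 CPM. Replicate 2 of the normal group was the lowest of all 10 libraries, and the other 4 normal libraries were the highest. The difference was -2.38 ± 0.48 on the log2 scale, or 5.21-fold, with an edgeR adjusted p of 0.00742. Both Fdps and Dhcr7 were called in each of the 23 alternative analyses of this comparison.

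Mvd (chromosome 8, 122433596 to 122443422), the decarboxylase that ends the mevalonate stretch, was at 44.7, 22.9, 47.6, 58.3 and 115 CPM in normal and 24.8, 23.4, 25.4, 19.5 and 23.5 CPM in dwarf ovary at 6 months. The dwarf values lay within a narrow band that only normal replicate 2 reached. The difference was -1.34 ± 0.37 (log2; edgeR adjusted p = 0.0467).

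Scarb1 (chromosome 5, 125277087 to 125341094) was at 2083, 89.5, 1188, 1523 and 2188 CPM in normal and 272, 250.4, 424, 276 and 335 CPM in dwarf ovary at 6 months. Normal replicate 2 fell below every dwarf library, while the other normal libraries were at 1188 CPM or more. The difference was -2.21 ± 0.59 (log2), or 4.63-fold, with an edgeR adjusted p of 0.0413. Of the 10 analyses that each left out 1 library, 2 kept the call for Mvd (those without normal replicate 1 or 2) and 1 kept it for Scarb1 (without normal replicate 2). The edgeR adjusted p reached 0.108 and 0.107 in the others.

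**Figure D1:**
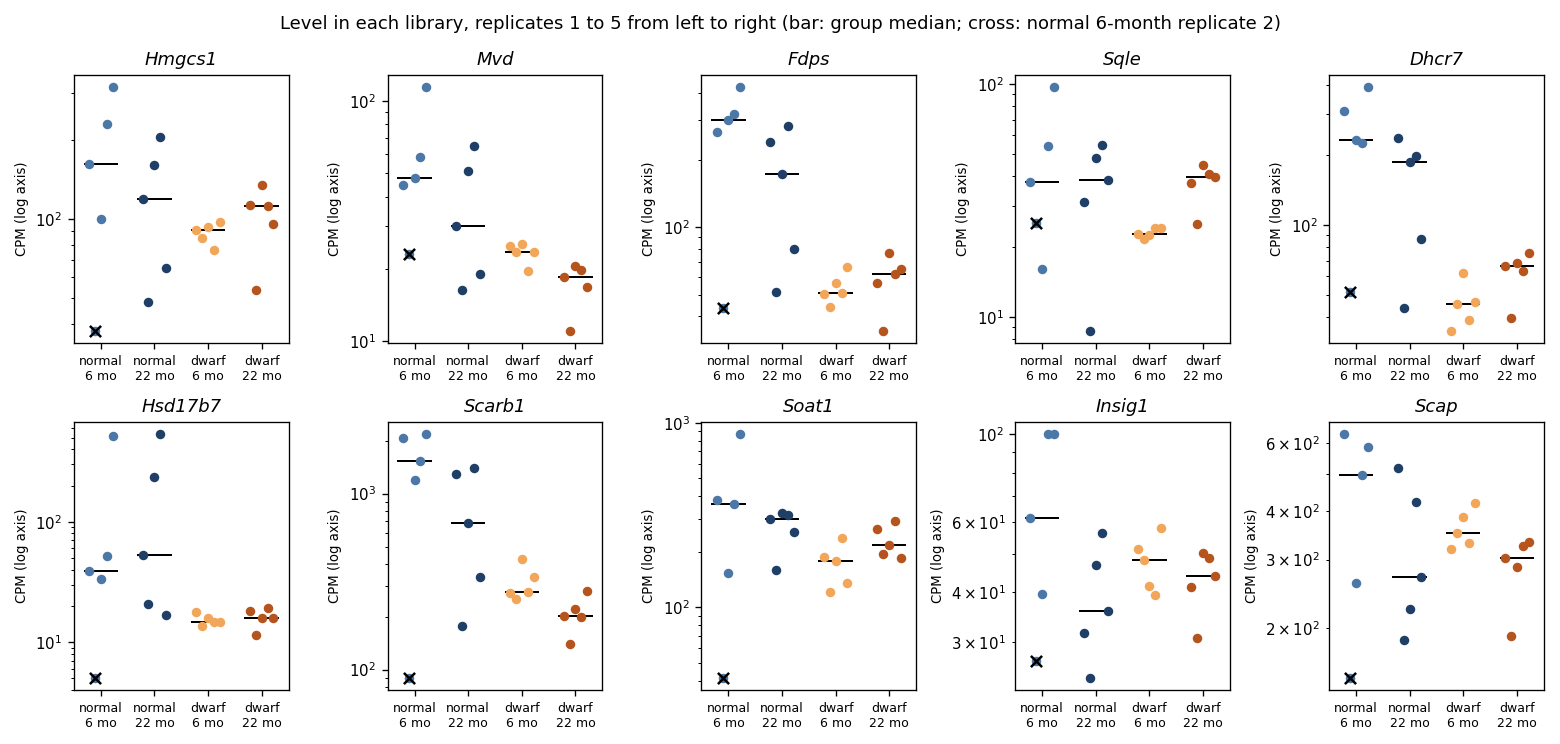
Level of 10 genes in each library, in CPM on log axes, with replicates 1 to 5 of each group from left to right, a bar at the group median and a cross on normal 6-month replicate 2. For Fdps and Scarb1 the cross lies below all 5 dwarf 6-month libraries and for Dhcr7 within them, while the other 4 normal 6-month libraries lie above all dwarf libraries.

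Without normal 6-month replicate 2, 10 messages were called lower in dwarf ovary at 6 months and 0 higher, where 3.49% of all genes were called lower and 5.48% higher. Those added were Hmgcs1, Idi1, Cyp51, Hsd17b7, Stard4 and Soat1. Their log2 differences were then between -3.38 ± 0.91 for Hsd17b7 and -1.16 ± 0.29 for Stard4, with edgeR adjusted p-values from 0.0125 for Soat1 to 0.0389 for Hmgcs1. Without normal replicates 2 and 3 at 6 months and normal replicate 3 at 22 months, 14 were called lower, against 5.64% of all genes, and Sqle, Lss, Insig1 and Lipa joined the list.

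Complete separation of the 2 genotypes followed the same pattern. With all libraries, 1 message, Ebp, which encodes a sterol isomerase, had every dwarf 6-month value below every normal value, where 1.81% of genes did. Its levels were 36.7, 33.6, 46.1, 42.6 and 46.1 CPM in normal and 28.3, 32.2, 33.4, 29.3 and 33.1 CPM in dwarf ovary. The difference of -0.43 ± 0.20 (log2) had an edgeR adjusted p of 0.257. Without normal replicate 2, 9 messages were separated in this way, against 4.15% of genes: Hmgcs1, Pmvk, Mvd, Idi1, Fdps, Hsd17b7, Ebp, Dhcr7 and Scarb1.

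Some enzymes that were not called are described in full because of their values. Hmgcs1, which makes the HMG-CoA at the head of the pathway, was at 162, 37.5, 99.6, 229.5 and 317 CPM in normal ovary at 6 months and at 90.5, 84.9, 93.1, 76.0 and 97.1 CPM in dwarf ovary (-0.96 ± 0.43 on the log2 scale, edgeR adjusted p = 0.234). Sqle, the squalene epoxidase, was at 37.9, 25.3, 16.1, 54.0 and 96.8 CPM and at 22.7, 21.5, 22.5, 24.1 and 24.0 CPM (-1.03 ± 0.39, edgeR adjusted p = 0.151). In both genes the dwarf values sat inside a normal range several times as wide.

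Hsd17b7 encodes a sterol ketoreductase of the late pathway that also converts estrone to estradiol and is known from the corpus luteum. It was at 39.3, 5.02, 33.7, 51.8 and 520.2 CPM in normal ovary at 6 months and at 52.6, 20.6, 235, 538 and 16.9 CPM at 22 months. The 10 dwarf libraries lay between 11.4 and 19.4 CPM. At each age the normal libraries reached from at or below the dwarf range to many times its upper end, while the dwarf libraries stayed close together. The log2 difference was -3.11 ± 1.00 at 6 months and -3.49 ± 1.02 at 22 months, with edgeR adjusted p-values of 0.0848 and 0.0648. Without normal 22-month replicate 4, the highest library at that age, the 22-month difference was -2.45, and with limma-voom it was -1.99. Without normal 6-month replicate 5, the highest library, the 6-month difference was -1.17, and those of Hmgcs1, Sqle and Soat1 were -0.65, -0.62 and -0.52.

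**Figure D2:**
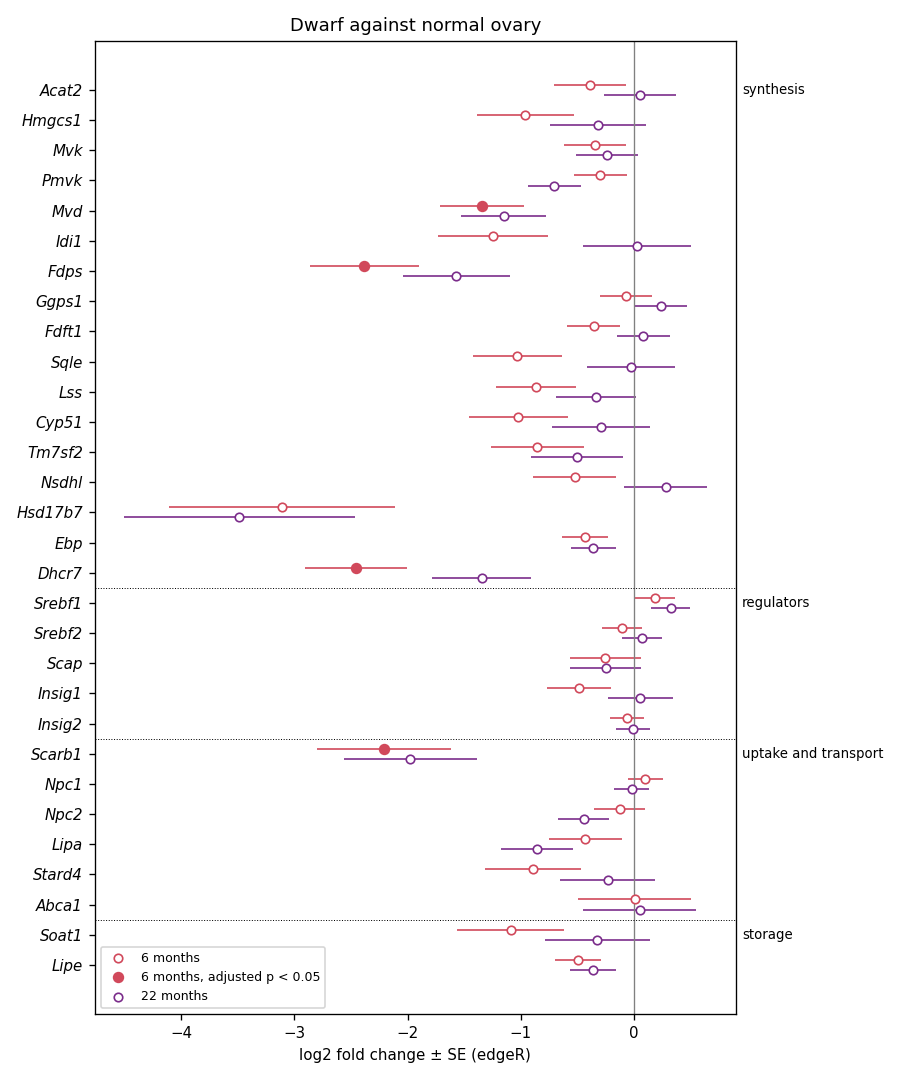
Log2 fold change ± SE (edgeR) of dwarf against normal ovary for the 30 genes, grouped by role, at 6 and at 22 months, with filled points for adjusted p under 0.05. The 4 filled points are Mvd, Fdps, Dhcr7 and Scarb1 at 6 months, and 0 of the 5 regulators has a filled point at either age.

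Among the regulators at 6 months 0 of 5 were called between genotypes, 0 had an unadjusted p under 0.05 in edgeR, and their median difference was -0.10 (log2). Scap (chromosome 9, 110333293 to 110384946), the most abundant of them per kilobase, was at 634, 148, 261, 497 and 588 CPM in normal and 320.1, 352, 386, 331 and 419.7 CPM in dwarf ovary at 6 months. The dwarf libraries sat in the middle of the normal range, and the difference was -0.25 ± 0.31 (log2; edgeR adjusted p = 0.729). Srebf2, the SREBP most tied to sterol synthesis, had a mean of 209 ± 69.5 CPM in normal and 197 ± 22.6 CPM in dwarf ovary at 6 months (SD, n = 5 each). Insig1 was called lower with limma-voom, and in edgeR without the 3 libraries that stood apart, where it differed by -0.83 ± 0.22 (log2; edgeR adjusted p = 0.0232). In that setting Scap differed by -0.63 ± 0.25 and Srebf2 by -0.33 ± 0.14 (edgeR adjusted p = 0.102 and 0.136).

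Among uptake, transport and efflux genes at 6 months, Scarb1 was the only call. Lipa, the lysosomal lipase that frees cholesterol from taken-up esters, differed by -0.43 ± 0.32, and the lysosomal exporters Npc1 and Npc2 by 0.10 ± 0.15 and -0.12 ± 0.23 (log2). Abca1, the sterol efflux pump, differed by 0.01 ± 0.50, with normal libraries from 17.3 to 246 CPM and dwarf libraries from 81.6 to 182 CPM. Soat1 (chromosome 1, 156428108 to 156474328), which esterifies cholesterol for storage, was at 382.5, 41.4, 153, 364 and 871 CPM in normal and 187, 121, 179, 237 and 135 CPM in dwarf ovary at 6 months. Normal replicate 2 was the lowest of the 10 libraries, replicate 3 lay within the dwarf range and the other 3 lay above it. The difference was -1.09 ± 0.47 (log2; edgeR adjusted p = 0.213).

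Part of the markers of steroid-producing cells differed in the same direction. Of 10 such markers, 5 fell in dwarf ovary at 6 months and 1, Insl3, rose. The estimate was below 0 for 8 and above 0 for 2. Insl3 was at 1.03 ± 1.07 CPM in normal and 67.2 ± 25.7 CPM in dwarf ovary. Cyp17a1 was at 204 ± 238 CPM in normal and 288 ± 196 CPM in dwarf ovary. Cyp11a1, which makes the first steroid from cholesterol, was at 2501 ± 1538 CPM in normal and 165 ± 95.5 CPM in dwarf ovary, and Ptgfr, the luteal prostaglandin receptor, at 86.5 ± 63.2 and 1.48 ± 1.07 CPM (SD, n = 5 each). The 10 markers summed to 141 to 12680 CPM in normal and 1709 to 3341 CPM in dwarf libraries at 6 months, with 0 of 10 at 0 in any library. Their part in the results for the cholesterol genes was not tested. In whole tissue, fewer cells of a type and less RNA per cell cannot be told apart.

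At 22 months 0 of the 30 messages were called between dwarf and normal ovary, where 1.86% of all genes were called lower and 1.96% higher. With upper quartile scaling the calls over all genes split into 393 higher and 211 lower, against 315 and 299 with the scaling used here. An unadjusted p under 0.05 in edgeR was reached by 7 messages, and each of the 7 was lower in dwarf ovary: Pmvk, Mvd, Fdps, Hsd17b7, Dhcr7, Scarb1 and Lipa. DESeq2 called 5 (Mvd, Fdps, Hsd17b7, Dhcr7 and Scarb1) and limma-voom 4 (Fdps, Dhcr7, Scarb1 and Lipa), all lower, against 3.77% and 8% of all genes. Of the 17 enzymes 12 had a difference below 0, with a median of -0.32, against 55.2% of all genes and a median of -0.04. The enzymes' median was -0.12 without normal replicate 4, -0.14 without normal replicate 3, -0.13 without dwarf replicate 2 and -0.07 with limma-voom.

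Fdps was at 240.4, 51.4, 173, 283 and 79.8 CPM in normal ovary at 22 months and at 56.5, 34.3, 76.7, 61.6 and 65.01 CPM in dwarf ovary. Dhcr7 was at 236, 43.6, 186.5, 197.5 and 87.0 CPM and at 66.5, 39.4, 68.6, 63.2 and 75.8 CPM. For both genes normal replicate 2 lay within the dwarf range, normal replicate 5 just above it, and the other 3 normal libraries well above. The log2 differences were -1.57 ± 0.47 for Fdps and -1.35 ± 0.44 for Dhcr7, with edgeR adjusted p-values of 0.0711 and 0.092.

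Scarb1 was at 1286, 177, 684, 1392 and 338 CPM in normal and 201, 139.7, 220.2, 199 and 278 CPM in dwarf ovary at 22 months, and again normal replicate 2 alone reached the dwarf range. The difference was -1.97 ± 0.59 (log2; edgeR adjusted p = 0.07). Mvd differed by -1.15 ± 0.38 (edgeR adjusted p = 0.094), with 30.3, 16.3, 51.1, 64.8 and 18.9 CPM in normal and 18.4, 10.97, 20.6, 19.7 and 16.9 CPM in dwarf ovary. Its normal replicates 2 and 5 lay within the dwarf range. Without normal 22-month replicate 2 the calls rose to 4 (Fdps, Hsd17b7, Dhcr7 and Scarb1), against 1.68% of all genes called lower. Without normal 22-month replicate 5 they rose to 3 (Pmvk, Fdps and Hsd17b7), against 2.19%. Without the 3 libraries that stood apart they rose to 5 (Fdps, Hsd17b7, Dhcr7, Scarb1 and Lipa), against 5.4% of all genes called lower and 5.37% higher.

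The markers of steroid-producing cells had 5 calls lower and 1 higher at 22 months as well, and their sums were 2505 to 11760 CPM in normal and 1478 to 4168 CPM in dwarf libraries. Normal replicate 2, which had the lowest Fdps, Dhcr7 and Scarb1 of its group, also had its lowest marker sum. Normal replicates 3 and 5 went the other way. The marker sum was 3608 CPM in replicate 3 and 4888 CPM in replicate 5. Fdps was at 173 and 79.8 CPM in these libraries, Dhcr7 at 186.5 and 87.0 CPM and Scarb1 at 684 and 338 CPM. Of 12 macrophage markers 2 were lower in dwarf ovary at 22 months, and their sums were 689 to 2950 CPM in normal and 624 to 881 CPM in dwarf libraries, none at 0. The part of these markers in the 22-month differences was not tested.

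Srebf1, the SREBP better known for fatty acid synthesis, was the only 1 of the 30 genes with every dwarf 22-month value above every normal value. Among all tested genes 5.16% were so placed, a share that 1 of 30 does not exceed. Srebf1 was at 148, 168.5, 122, 153.5 and 169 CPM in normal and 197, 187, 228, 188 and 213 CPM in dwarf ovary. The difference was 0.32 ± 0.17 (log2) with an edgeR adjusted p of 0.345. Its exons overlap those of Rai1, and with no strand setting known for the counting the reads of both genes cannot be told apart there. The other regulators differed by -0.25 to 0.07 (log2) at this age.

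Between 6 and 22 months 0 of the 30 messages were called in normal ovary, where 4.14% of all genes were called lower and 2.6% higher. In edgeR 2 messages had an unadjusted p under 0.05, Insig1 and Lipa. DESeq2 called 0 and limma-voom 2, Mvd and Insig1, both lower, where limma-voom called 10.9% of all genes lower. Of 17 enzymes 13 had an estimate below 0, with a median of -0.38 against -0.02 for all genes. This median was -0.10 without normal 6-month replicate 5, -0.18 without normal 22-month replicate 2 and -0.64 without normal 22-month replicate 4. Insig1, the sterol-sensing brake on SREBP, was at 61.4, 26.9, 39.5, 100.3 and 100.1 CPM at 6 months and 31.6, 24.3, 46.8, 56.5 and 35.8 CPM at 22 months. Replicates 1, 4 and 5 at 6 months lay above every 22-month library and the other two lay among them, and the difference was -0.78 ± 0.29 (log2; edgeR adjusted p = 0.109).

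Without normal 6-month replicate 2, 5 messages were called lower with age in normal ovary (Mvk, Fdps, Dhcr7, Insig1 and Scarb1), against 10% of all genes, and 1 higher (Srebf1), against 16.9%. Insig1 then differed by -0.94 ± 0.24 with an edgeR adjusted p of 0.00652, and Scarb1 by -1.16 ± 0.41 with 0.0402. Markers of steroid-producing cells summed to 10570 to 12680 CPM in the 4 libraries left at 6 months and 2505 to 11760 CPM at 22 months, and oocyte markers to 254 to 484 and 6.78 to 46.4 CPM. Oviduct markers summed to 24.4 to 472 CPM in those 4 libraries and to 2173 to 4946 CPM at 22 months. With all libraries 0 of 10 markers of steroid-producing cells were called with age in normal ovary, though 10 of 10 estimates lay below 0, and 7 of 8 oocyte markers fell. The part of the steroid-producing cell, oocyte and oviduct markers in these calls was not tested. Without replicate 2, 0 of the 30 messages had groups that did not overlap, where 5.22% of genes were lower and 11.4% higher without overlap. Without all 3 libraries that stood apart, 6 were lower (Hmgcs1, Mvd, Lss, Cyp51, Insig1 and Soat1), against 12.9%, and Srebf1 was higher, against 16.7%. In dwarf ovary the same setting called Srebf1 higher with age and 0 lower, where 13.3% of all genes were higher and 15.4% lower. Insig1 was on both of these lists of lower calls.

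Lipa was at 43.8, 9.39, 18.3, 37.3 and 42.2 CPM at 6 months and 58.7, 27.7, 70.2, 52.1 and 54.1 CPM at 22 months in normal ovary. Normal 22-month replicate 2 alone fell within the younger range, and the difference was 0.78 ± 0.32 (log2; edgeR adjusted p = 0.154). Without the 3 libraries that stood apart it was 0.28 ± 0.24 (edgeR adjusted p = 0.412). Of 12 macrophage markers 5 rose with age in normal ovary, among them Lyz2 from 80.9 ± 25.9 to 338 ± 199.5 CPM (SD, n = 5 each). The 12 summed to 321 to 715 CPM at 6 months and 689 to 2950 CPM at 22 months, and none was at 0. Their part in the level of Lipa was not tested.

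In dwarf ovary 0 of the 30 messages were called between 6 and 22 months, and 0 had an unadjusted p under 0.05 in edgeR, where 8.27% of all genes were called lower and 2.92% higher. Calls over all genes split into 470 higher and 1332 lower, against 533 and 862 when library totals alone were used for scaling. DESeq2 called 0 and limma-voom 4, all higher: Idi1, Sqle, Nsdhl and Srebf1, where limma-voom called 22% of all genes higher. Of 17 enzymes 11 had an estimate above 0, and their median was 0.12 against 0.0021 for all genes. A fit of the 2 dwarf groups alone called Sqle, Lss, Nsdhl, Srebf1, Stard4 and Lipe higher and Mvd and Scarb1 lower, where 15.3% of all genes were called higher and 18.2% lower.

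Every 22-month dwarf value of Sqle, Ggps1 and Lipe lay above every 6-month value, where 9.85% of genes did. Oviduct markers summed to 34.7 to 1753 CPM in dwarf libraries at 6 months and to 2112 to 3850 CPM at 22 months. The part of these markers was not tested. Sqle was at 22.7, 21.5, 22.5, 24.1 and 24.0 CPM at 6 months and 37.4, 25.1, 44.9, 40.9 and 39.6 CPM at 22 months (0.63 ± 0.39 on the log2 scale, edgeR adjusted p = 0.298). In Ggps1, which turns farnesyl into geranylgeranyl diphosphate, the means were 10.8 ± 1.36 and 14.2 ± 1.2 CPM, and in Lipe, the hormone-sensitive lipase, 44.3 ± 6.08 and 56.3 ± 3.67 CPM (SD, n = 5 each). Lipe is abundant in fat, and 7 of 9 adipocyte markers rose with age in dwarf ovary. Their sums were 78.9 to 140.0 CPM at 6 months and 209 to 525 CPM at 22 months, with 1 marker at 0 in a 22-month library, and their part in the level of Lipe was not tested.

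**Figure D3:**
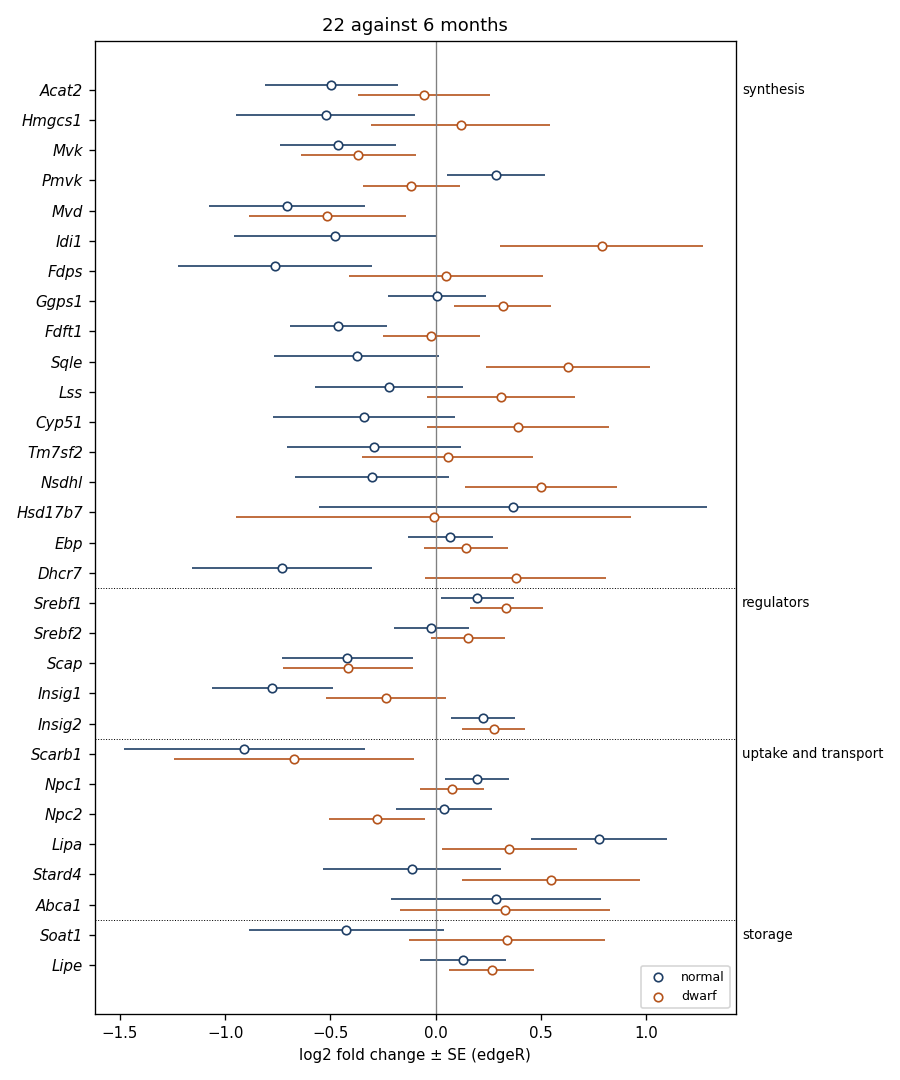
Log2 fold change ± SE (edgeR) of 22 against 6 months for the 30 genes, grouped by role, in normal and in dwarf ovary. No point is filled because 0 genes were called in either genotype, and 13 of 17 enzymes lie left of 0 in normal ovary while 11 of 17 lie right of 0 in dwarf ovary.

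The age change did not differ detectably between genotypes for any of the 30 messages. The edgeR test of that difference called 0 of them and 0 of all 16099 genes, and 0 of the 30 had an unadjusted p under 0.05. That last count was 13 with limma-voom, 7 in edgeR without normal 6-month replicate 2 and 12 without the 3 libraries that stood apart. DESeq2 called 0 of the 30 and 17 of all genes, and limma-voom 0 and 9. The estimate was above 0 for 15 of 17 enzymes and 5 of 5 regulators, where 49.6% of all genes were below 0, and was largest for Idi1 at 1.27 ± 0.68 and Dhcr7 at 1.11 ± 0.61 (log2). Without the 3 libraries that stood apart, 117 genes (0.715%) were called with a positive and 85 (0.519%) with a negative difference, and 0 of them were among the 30.

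Normal libraries were more spread than dwarf libraries. The SD of log2(CPM + 0.5) over 5 libraries was larger in normal than in dwarf ovary for 29 of 30 messages at 6 months, with medians of 0.89 and 0.21. Over all tested genes 91.75% had the larger SD in normal ovary at this age, so the share among the 30 was near the background. The median SD over all genes was 0.57 in normal and 0.23 in dwarf ovary. Without normal replicate 2 the count was 28 of 30, with a median of 0.60 in normal ovary, against 78.6% of all genes, and without replicates 2 and 3 it was 22 of 30, against 56.5%. At 22 months it was 27 of 30, with medians of 0.52 and 0.34, against 71.2% of all genes. No test was made of these counts.

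**Figure D4:**
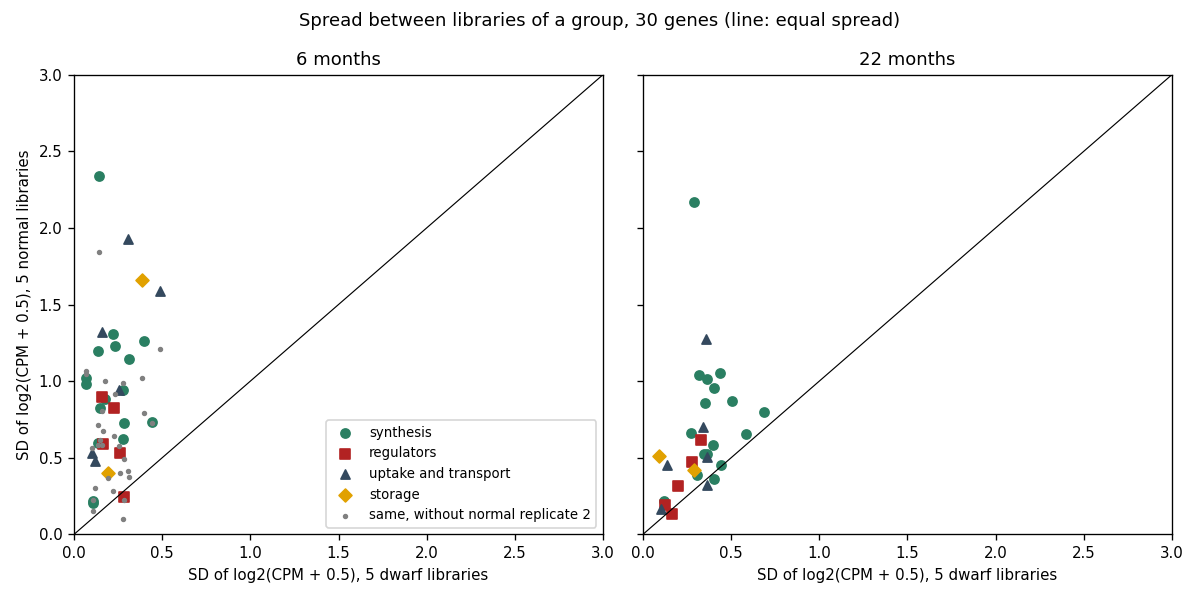
SD of log2(CPM + 0.5) over the 5 normal libraries against the SD over the 5 dwarf libraries for each of the 30 genes, at 6 and 22 months, with small grey points for 6 months without normal replicate 2. At 6 months 29 of 30 genes lie above the line of equal spread, and Hsd17b7 is the highest point at both ages.

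The ratio of the highest to the lowest library of a group shows the same contrast on the CPM scale. Its median over the 30 messages was 4.79 in normal and 1.41 in dwarf ovary at 6 months, and 2.48 and 1.78 at 22 months. The widest ratio in normal ovary at 6 months was that of Hsd17b7 (104), followed by Scarb1 (24.4) and Soat1 (21.0). Without normal replicate 2 the median there was 2.48, and these 3 ratios were 15.4, 1.84 and 5.69. In dwarf ovary at 6 months the widest ratio of any of the 30 was 2.28.

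The rank of the libraries within a group was counted over the 17 enzymes. In normal ovary at 6 months, replicate 5 was the highest library for 14 of 17 enzymes and replicate 2 the lowest for 13. At 22 months replicate 4 was the highest for 10 and replicate 2 the lowest for 11. In dwarf ovary at 22 months replicate 3 was the highest for 11 and replicate 2 the lowest for 16, and at 6 months replicate 3 was the highest for 9, while the lowest was replicate 4 for 7 enzymes, replicate 2 for 5, replicate 1 for 4 and replicate 3 for 1. Summed over the 17 enzymes, levels were 1176, 407, 1061, 1447 and 2552 CPM in normal ovary at 6 months and 994, 472, 1252, 1824 and 588 CPM at 22 months. In dwarf ovary they were 510.5, 504, 597, 474 and 585 CPM at 6 months and 664, 391, 754, 652 and 675 CPM at 22 months. The lowest normal library at 6 months thus lay below all dwarf libraries of that age, and the highest was more than 4 times the highest dwarf library.

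**Figure D5:**
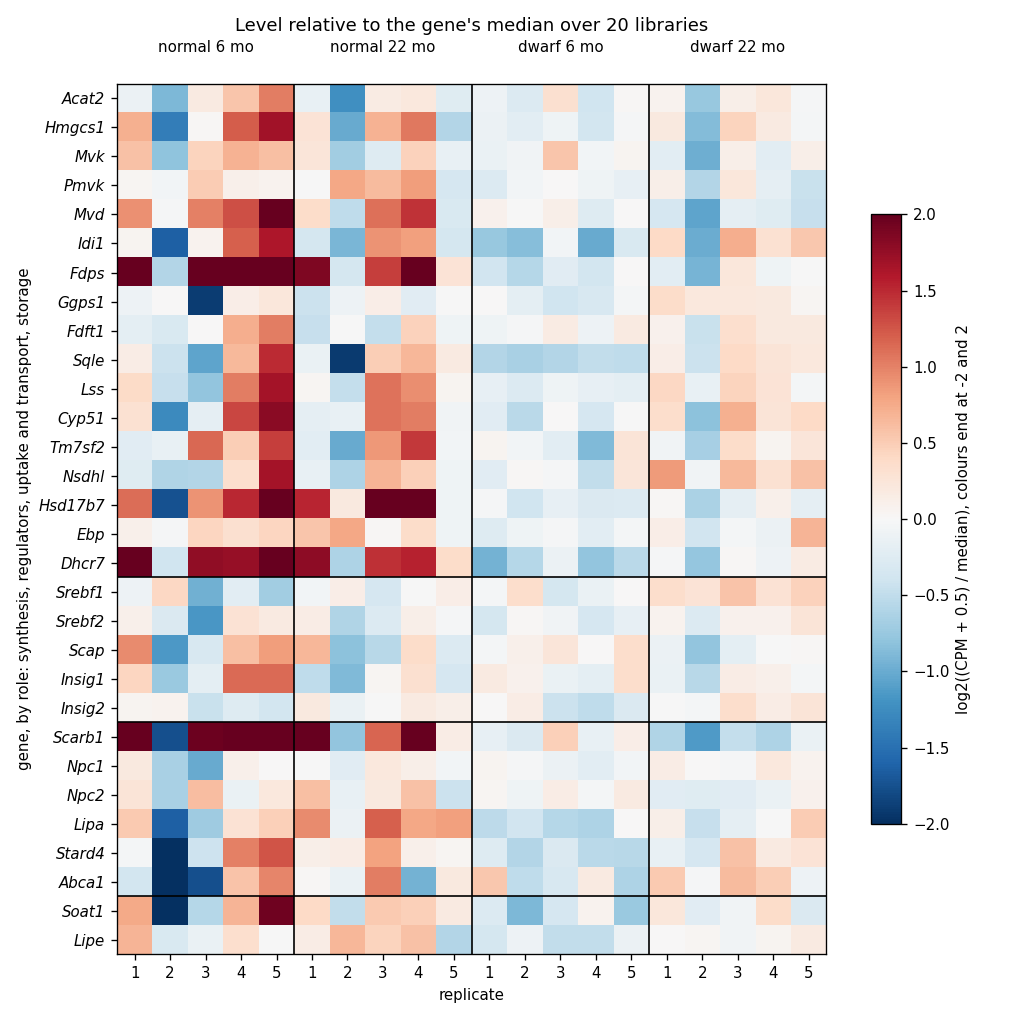
Level of each of the 30 genes in each of the 20 libraries, as log2 of (CPM + 0.5) over the gene's median, with colours ending at -2 and 2 and genes grouped by role. Fdps, Dhcr7, Hsd17b7 and Scarb1 are red in normal 6-month replicates 1, 3, 4 and 5, and replicate 2 of that group is blue for most genes.

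Of 30 further genes of sterol handling, 2 rose and 0 fell in dwarf ovary at 6 months, where 2.27% of all genes rose and 2.3% fell. At 22 months 1 rose and 1 fell, where 1.96% and 1.86% of all genes did. Cyp27a1, the mitochondrial sterol 27-hydroxylase, was at 17.7 ± 3.92 CPM in normal and 80.7 ± 18.7 CPM in dwarf ovary at 6 months, and at 19.4 ± 7.25 and 51.9 ± 17.2 CPM at 22 months (SD, n = 5 each). The log2 differences were 2.17 ± 0.27 and 1.35 ± 0.26, with edgeR adjusted p-values of 0.000237 and 0.00627, and the normal and dwarf libraries did not overlap at either age. Mylip, the ubiquitin ligase that removes lipoprotein receptors, rose at 6 months (0.77 ± 0.19, edgeR adjusted p = 0.022), a call that 6 of 23 alternative analyses lost. Plin2, a lipid droplet coat protein, fell at 22 months from 149.7 ± 18.0 to 82.8 ± 1.88 CPM (-0.95 ± 0.15, edgeR adjusted p = 0.0013).

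With age in normal ovary 3 of the same 30 rose and 0 fell, where 2.6% of all genes rose and 4.14% fell: Mylip by 0.64 ± 0.19, the sterol exporter Abcg1 by 1.19 ± 0.30 and Plin2 by 0.52 ± 0.15 (log2; edgeR adjusted p = 0.0441, 0.0239 and 0.041). Of 23 alternative analyses, 13 lost the call for Mylip, 5 that for Abcg1 and 9 that for Plin2. In dwarf ovary 1 rose with age and 0 fell, where 2.92% of all genes rose and 8.27% fell. It was the lipid carrier Stard5, which rose by 0.76 ± 0.20 (log2; edgeR adjusted p = 0.0213). Of 15 genes of fatty acid and lipid metabolism, Pnpla3 alone fell with age in each genotype. Among all genes 4.14% fell in normal and 8.27% in dwarf ovary. Pnpla3 fell by 1.82 ± 0.39 in normal and 1.79 ± 0.38 in dwarf ovary on the log2 scale (edgeR adjusted p = 0.0117 and 0.0068). Scd1, the stearoyl-CoA desaturase, alone of the 15 rose with age in dwarf ovary, where 2.92% of all genes rose. Scd1 rose by 1.59 ± 0.50 (log2; edgeR adjusted p = 0.0465). That call was lost in 13 of 23 alternatives, including each of the 10 that left out 1 library (edgeR adjusted p up to 0.101). Acss2, an acetyl-CoA synthetase, was 1.87-fold lower in dwarf than normal ovary at 22 months (edgeR adjusted p = 0.0187), a call lost in 4 of 23 alternatives. It was the only call of the 15 in that comparison, where 1.86% of all genes were lower. Of 10 genes of the isoprenoid branch that leaves the pathway at farnesyl diphosphate, 1 fell in dwarf ovary at 6 months. Among all genes 2.3% fell in that comparison. The gene was Nus1, a subunit of the enzyme that makes dolichol precursors (-0.53 ± 0.15, edgeR adjusted p = 0.0421), a call lost in 12 of 23 alternatives. Fnta, the alpha subunit of protein farnesyltransferase, alone of the 10 rose with age in dwarf ovary (0.59 ± 0.14, edgeR adjusted p = 0.0136), where 2.92% of all genes rose.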

How the data were processed

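Ovary polyadenylated RNA of 20 mice was sequenced, 1 library per mouse, and groups were taken from the labels. The authors deposited raw read counts per gene, 1 file per library. The submitters' processing notes name the build mm10 and the tools HTSeq, Bowtie2, TopHat2 2.0.10, TopHat, edgeR and DESeq. The sources used here do not give the role of each tool, the release of the annotation or whether counting used strand. Summary lines held 9.84 to 17.6% of each file and were left out of totals and tests. Other values, in the annotation deposited by the authors, are mm10 coordinates, from which positions, overlaps and merged exon lengths were taken.

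Tests were run with edgeR 4.0.16 under R 4.3.3 (filterByExpr with a minimum count of 10 and a minimum total of 15, TMM scaling, robust quasi-likelihood test) in a model of 4 group means over all 20 libraries, with 5 contrasts and Benjamini-Hochberg adjustment over 16099 genes. DESeq2 1.42.0 and limma 3.58.1 (voom with quality weights) were alternatives, beside other scalings and filters, non-robust estimates, the groups compared alone, a block for the replicate number, omission of each library in turn, of the 3 that stood apart or of those titled 21 to 23, and a sum of a pair of similar dwarf libraries (replicates 1 and 4 at 22 months).

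The 30 genes, the lists and the comparisons were chosen with earlier results of these data known. Described in full were genes called in any contrast and, in each role, the gene with the highest CPM per kilobase. Hmgcs1, Sqle, Hsd17b7, Ebp, Insig1, Srebf1 and Lipa were added after their values were seen. Of the other lists, up to 4 called genes per contrast, or 2 for cell markers, are named. Insl3 and Cyp17a1 are named beyond that limit. Promoter letters were searched with Python 3.11.15.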

Additional observations from a re-analysis of the deposited data

Results flagged for a closer look

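In groups of 5 libraries, a value was singled out where its gap to the nearest other library, divided by the group's range, exceeded 0.71 (Dixon's 95% critical value). Of 120 combinations of gene and group 8 did so. Chance alone singles out about 1 in 20 groups. In normal ovary at 6 months these were Mvk at 13.5 CPM in replicate 2, below the other 4 libraries, Pmvk at 24.2 CPM and Ggps1 at 2.93 CPM in the shallow replicate 3, above and below the others, and Nsdhl at 61.2 CPM and Hsd17b7 at 520.2 CPM in replicate 5, above the others. Mvk was also high in dwarf 6-month replicate 3 at 35.3 CPM. At 22 months Npc2 was high in dwarf replicate 5 at 213.9 CPM and Stard4 in normal replicate 3 at 12.6 CPM. Of these 8 values, 5 lie in the normal 6-month group, and replicates 3 and 5 of that group hold 2 each.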

How the results depend on the processing

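Counts of the 30 genes called depended on the analysis. Dwarf against normal at 6 months gave 4 lower, and 14 with limma-voom, 14 without the 3 libraries that stood apart, and 2 each with no low-count filter, with the replicate block, with only the groups compared and without title numbers 21 to 23. Without title numbers 21 to 23, 6 of the 30 had an unadjusted p under 0.05 in edgeR, against 13 with all libraries. Leaving out 1 library gave 2 to 10, the highest without normal replicate 2. At 22 months 0 became 5 with DESeq2, 4 with limma-voom, 1 with the replicate block (Fdps), 2 with only the groups compared and 5 without the 3 libraries, and leaving out 1 library gave 0 to 4. Age in normal ovary gave 0 lower and 0 higher, and 2 lower with limma-voom, 6 lower and 1 higher without the 3 libraries, and 0 to 5 lower and 0 to 1 higher with 1 library left out. Age in dwarf ovary gave 0, and 4 higher with limma-voom, 6 higher and 2 lower with only the groups compared and 1 higher without the 3 libraries. The difference of the age changes called 0 in each of 32 alternatives. The cause of these shifts was not tested.

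Genes of the 30 were followed through the alternatives where their unadjusted p in edgeR was under 0.05. Genes of the other lists, cell markers aside, were followed where called. No estimate of these genes reversed, an outcome that this choice made likely. Of 828 comparisons of 36 gene results with an alternative, 690 stayed on their side of the threshold, 91 lost a call and 47 gained it. The median difference of the 17 enzymes ranged from -1.28 to -0.60 between genotypes at 6 months, -0.43 to -0.07 at 22 months, -0.84 to -0.10 with age in normal and 0.0073 to 0.24 in dwarf ovary, and 0.24 to 0.79 for the difference of the age changes (log2). Over all genes edgeR, DESeq2 and limma-voom called 735, 1414 and 1855 between genotypes at 6 months, 614, 1201 and 2266 at 22 months, 1086, 1766 and 3803 with age in normal and 1802, 2747 and 7492 in dwarf ovary. Deviations of 30 same-number pairs correlated at -0.22 to 0.72, with a median of 0.0014, against a median of -0.02 for pairs of different number. Of 20 libraries 8 were closest to a library of their own number. These values do not settle whether some replicate numbers pair libraries. With dwarf 22-month replicates 1 and 4 summed, edgeR called 272 of all genes between genotypes at 22 months and 1107 with age in dwarf ovary. Leaving out dwarf 22-month replicate 1 instead gave 263 and 1079. In replicates 1 and 4 of that group adipocyte markers summed to 316 and 317 CPM and oviduct markers to 2179 and 2112 CPM. Markers of steroid-producing cells summed to 4147 and 4075 CPM there, while Insl3 was at 7.46 and 16.3 CPM. Whether these replicates came from separate mice was not tested. All 120 group means stayed within 1 SD with TMM library sizes. Depth limits Stard4 and Ggps1 most, with counts down to 7 and 4.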
